A study of Homo sapiens with 9 samples.

Results

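HEL cells lacking METTL14 or WTAP were compared with control cells by H3K4me3 CUT&RUN, in which an antibody guides a nuclease to the mark and the cut fragments are sequenced. The 2 METTL14-KO and 2 WTAP-KO libraries were pooled as 4 KO libraries and set against the 3 libraries of the non-targeting control (NTC). These are 7 of the 9 libraries of the series, the other two being METTL3-KO. HEL is an established human erythroleukemia line with erythroid and megakaryocytic features, and every group was grown in the same medium with serum. The METTL14-KO and WTAP-KO cells carried CRISPR knockouts of METTL14 or of WTAP, and the NTC cells carried a control guide with no target. The labels give no time after transduction, no guide, no clone and no culture or batch for any library. The p-values below therefore measure only the spread between these libraries, which may be technical. A gene was called marked in a library where a peak of that library lay within 1 kb of any annotated start of the gene, and its signal was the sum of the deposited signal of those peaks. In total 20136 protein-coding genes were classed by the number of NTC and KO libraries that marked them, and a gene marked by each of the 3 NTC libraries is called NTC-marked.

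METTL3, METTL14 and WTAP are subunits of the complex that writes N6-methyladenosine (m6A) on messenger RNA. METTL3 is the catalytic subunit, METTL14 holds the RNA, and WTAP brings the pair to nuclear speckles and to further cofactors. H3K4me3 is a histone mark found at the starts of active genes. It is written by the SETD1 and KMT2 families of methyltransferases within COMPASS complexes, and SETD1A, SETD1B and KMT2D were among the genes whose translation the study had linked to the m6A writer. The comparison asks which promoters, and among them which promoters of red cell genes, held the mark after loss of either subunit. Erythroid promoters are classically bound by GATA1, which recognises GATA letters, and by KLF1, which recognises the CACCC-type letters CCNCNCCC.

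Upstream sequences of 4 genes are shown because they stand for the 3 outcomes the comparison turns on. KLF1 and FECH were NTC-marked with no KO peak, FOXO3 was marked in all 7 libraries, and HAUS6 had a peak in the 4 KO lists alone. Each run lies on hg19 within the 250 bases before the canonical GENCODE start, cut to the longest stretch free of annotated exons, and reads 5′ to 3′ on the strand of the gene. Capitals mark matches, on either strand, to CCNCNCCC or to AGATAA, where the first letter may also be T.
KLF1 (erythroid transcription factor, chr19:12998016-12998265, minus strand): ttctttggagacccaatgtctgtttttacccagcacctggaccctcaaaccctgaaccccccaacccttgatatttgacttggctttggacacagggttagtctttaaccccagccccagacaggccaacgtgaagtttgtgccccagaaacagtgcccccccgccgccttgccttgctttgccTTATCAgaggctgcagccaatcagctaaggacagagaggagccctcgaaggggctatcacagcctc
FECH (ferrochelatase, chr18:55253965-55254184, minus strand): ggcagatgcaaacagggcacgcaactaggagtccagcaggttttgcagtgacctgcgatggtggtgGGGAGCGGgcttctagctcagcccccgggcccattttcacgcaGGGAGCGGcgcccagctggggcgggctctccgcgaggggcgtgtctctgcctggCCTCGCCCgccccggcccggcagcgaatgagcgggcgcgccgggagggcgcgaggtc
FOXO3 (forkhead transcription factor, chr6:108881870-108882119, plus strand): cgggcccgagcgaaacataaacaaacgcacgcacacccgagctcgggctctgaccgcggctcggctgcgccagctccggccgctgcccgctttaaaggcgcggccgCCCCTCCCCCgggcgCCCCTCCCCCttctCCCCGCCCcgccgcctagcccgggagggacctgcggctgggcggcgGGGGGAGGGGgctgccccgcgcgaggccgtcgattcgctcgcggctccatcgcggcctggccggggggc
HAUS6 (augmin subunit of the mitotic spindle, chr9:19102903-19103152, minus strand): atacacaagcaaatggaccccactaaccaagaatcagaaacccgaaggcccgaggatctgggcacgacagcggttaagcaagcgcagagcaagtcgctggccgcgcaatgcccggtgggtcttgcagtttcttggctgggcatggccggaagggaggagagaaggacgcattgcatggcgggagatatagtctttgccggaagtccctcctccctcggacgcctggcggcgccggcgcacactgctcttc
The KLF1 run held 1 GATA match and no CCNCNCCC match, the FECH run 3 CCNCNCCC matches and the FOXO3 run 7, while the HAUS6 run held neither.

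The lists hold peaks and no read totals, so the depth of each library is unknown. The NTC lists held 21724 to 21941 peaks and the KO lists 3160 to 5286. All lists ran from 150 to at most 2000 bp in peak width, and a wider peak appears in none of them. In the NTC libraries 12.2% to 13.0% of peaks were over 1500 bp wide, against 1.74% to 1.89% in the KO libraries. A promoter with an NTC peak wider than 2000 bp would be counted here as unmarked in NTC, and how often this occurred was not tested. The values of each library up to 5000 steps came in whole multiples of a small step, within 0.1 of a step, and the weakest peak was 24 to 28 steps in the NTC lists and 70 to 94 steps in the KO lists. Of the 8 erythroid marker genes checked, 5 were NTC-marked (EPOR, GATA1, GYPC, KLF1 and TAL1). Of the 5 megakaryocytic markers 2 were, GP1BA among them. Of 9 markers of other lineages, 6 had no peak in any of the 7 libraries, while the other 3, among them CD8A and PAX5, were NTC-marked and had no KO peak.

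Each KO library marked fewer genes than any NTC library. NTC replicates 1 to 3 marked 9648, 9588 and 9435 genes, METTL14-KO replicates 1 and 2 marked 4263 and 2662, and WTAP-KO replicates 1 and 2 marked 2298 and 2606. The groups did not overlap, and METTL14-KO replicate 1 stood highest of the KO libraries. The KO mean of 2957 ± 885 genes (SD, n = 4) was 30.9% of the NTC mean of 9557 ± 110 (SD, n = 3). The two-sided exact permutation test gave p = 0.0571, the smallest value that 35 arrangements of 4 against 3 libraries allow, so this design cannot reach 0.05. Without METTL14-KO replicate 1 the KO mean was 26.4% of the NTC mean. In cell pools, less H3K4me3 per cell and fewer cells carrying the mark cannot be told apart.

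**Figure D1:**
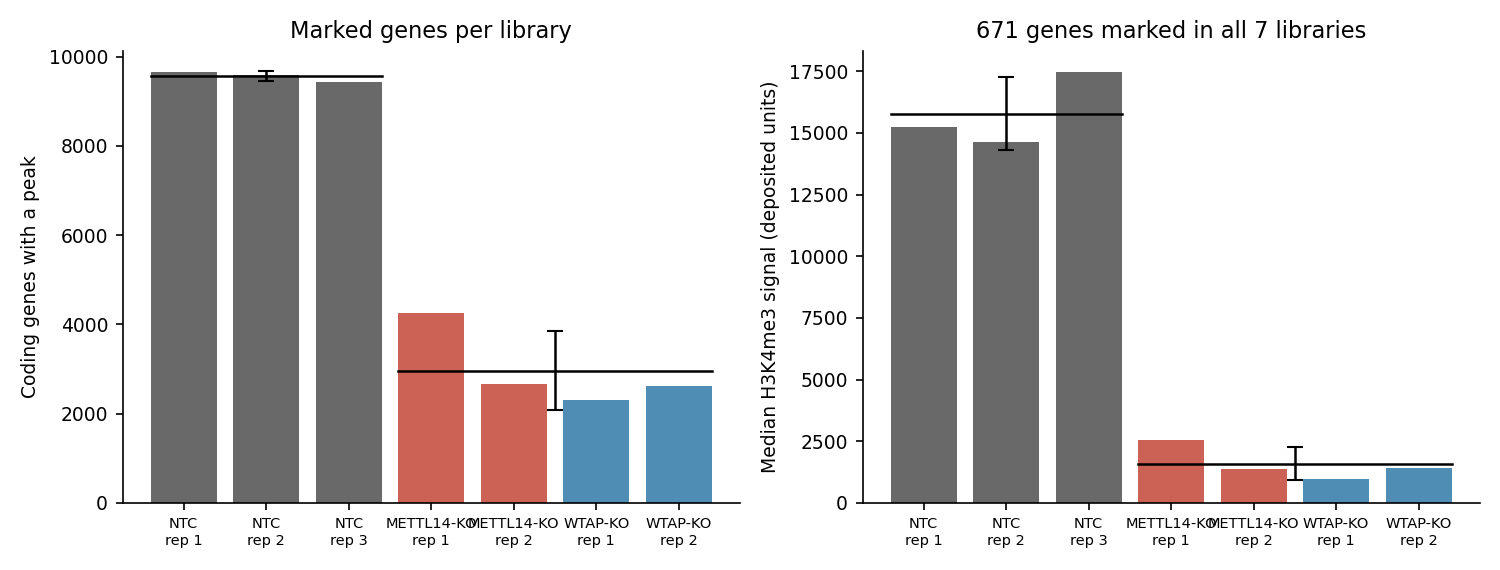
Bars give, for each of the 7 libraries, the number of marked coding genes (left) and the median H3K4me3 signal in deposited units at the 671 genes marked in all 7 libraries (right), with black lines and error bars for the mean and SD of the 3 NTC and the 4 KO libraries. Every KO bar lies below every NTC bar, and METTL14-KO replicate 1 is the highest KO bar in both panels.

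Among 8491 NTC-marked genes, 6102 had no peak in any KO library, 1718 had one in 1 to 3 KO libraries and 671 in all 4. These are 71.9%, 20.2% and 7.90% of the NTC-marked genes, and they serve below as the background for each gene list. Neighbouring genes can share a peak, and the 6102 genes rested on 8606 merged regions. Leaving out METTL14-KO replicate 1 raised the number of genes marked in no KO library to 6935, and leaving out any other library kept it between 6141 and 6385. When NTC and KO peaks were held to an equal minimum of 94 steps, 6049 genes were marked in no KO library and 667 in all 4.

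Among the 1718 genes marked in some KO libraries, 1107 had their KO peaks only in METTL14-KO and 125 only in WTAP-KO, while 486 had a peak in both KO groups. The excess lay largely in 1 library, since 833 genes were marked by METTL14-KO replicate 1 and by no other KO library. Both METTL14-KO libraries and neither WTAP-KO library marked 233 genes, and the reverse held for 21 genes.

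The signal was tested with limma over all genes marked in at least 2 of the 7 libraries, NTC-marked or not. Of 11191 genes tested, 8389 (75.0%) were lower and 1074 (9.60%) were higher in KO at an adjusted p under 0.05. For a gene with no KO peak all 4 KO values are 0, so its spread comes from the NTC libraries alone, and no fold is given against a group listed at 0. A group of equal zeros adds no spread, which lowers the limma p of such genes here and below. Such a p does not measure how sure a loss is. Of the 1074 genes called higher, 1029 had no NTC peak, and 45 were called when a peak in at least 1 NTC library was also required, an alternative chosen after seeing the data. Centring each library on the 671 genes marked throughout moved the median log2 change of all genes tested from -6.25 to -2.87 and left 7105 lower and 1470.0 higher. Over merged regions, 16123 of 22802 (70.7%) were lower in KO and 1802 (7.90%) were higher.

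NTC-marked genes that also had KO peaks had a higher median NTC signal, though the ranges overlapped. The median NTC signal was 4436 at genes marked in no KO library, 9911 at genes marked in 1 to 3, and 15785 at genes marked in all 4. When NTC-marked genes were put into 10 equal bins by NTC signal, 95.5% of the lowest bin were marked in no KO library and 1.88% in all 4. In the highest bin these shares were 24.1% and 40.9%. The widest NTC peak at a gene had a median width of 981 bp where no KO library marked it, 1359 bp at genes marked in 1 to 3, and 1509 bp where all 4 did. Merged regions away from coding starts, with a lower median NTC signal of 1880 against 3912 at starts, were without a KO peak in 93.2% of cases against 81.8% at starts.

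**Figure D2:**
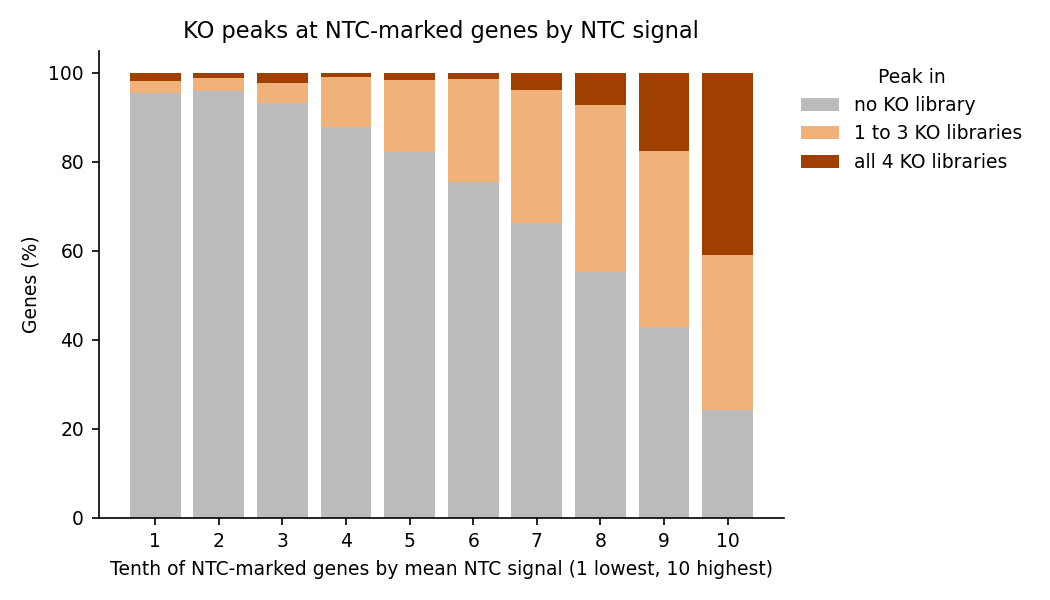
Bars split the 8491 NTC-marked genes into 10 bins by mean NTC signal (x axis, lowest to highest) and give the percentage marked in no KO library (grey), in 1 to 3 (light orange) and in all 4 (brown). The grey share runs from 95.5% in the lowest bin to 24.1% in the highest, and the brown share from 1.88% to 40.9%.

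The promoter sequences of the classes differed little in the GATA letters and more in the GC-rich letters, given here as a description. In the window from 250 bases before to 50 bases after the canonical start, AGATAA or TGATAA stood in 6.92% of genes marked in no KO library and in 6.56% of those marked in all 7, against 11.5% of all coding genes. CCNCNCCC stood in 79.9% and 66.3%, against 69.3% of all coding genes. The GC box GGGCGG, which overlaps many CCNCNCCC matches, stood in 76.9% and 68.4%, against 61.0%. The ETS letters CCGGAAG stood in 17.7% and 27.9%, against 14.02%. The median GC content over 1000 bases around the start was 64.9% at genes marked in no KO library and 60.4% at those marked in all 7.

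Erythroid transcription factors, which set the red cell programme, were mostly without a KO peak or with a peak in few KO libraries. Of 18 such genes, 14 were NTC-marked, and 7 of the 14 had no KO peak, 6 were marked in some KO libraries and 1 in all 4. The share without a KO peak was thus below the 71.9% of all NTC-marked genes, at a median NTC signal of 7890 against 5947. Of the 17 tested, 14 were lower in KO and none was higher, beside 75.0% lower and 9.60% higher over all genes tested. KLF1, which activates globin and heme genes, had NTC signals of 10347, 8488 and 11190 and no KO peak (limma adjusted p = 1.2e-07). GATA1, the central erythroid factor, had NTC signals of 2638, 2788 and 2982 and no KO peak (limma adjusted p = 9.8e-08). Both were listed at 0 in all 4 KO libraries, so these p-values rest on the NTC spread alone, and the groups did not overlap. GFI1B, a repressor needed in red cell and platelet precursors, had NTC signals of 3193, 7484 and 3357 and no KO peak. ZFPM1, the GATA1 cofactor also called FOG1, had NTC signals of 3765, 2775 and 3894 and no KO peak. LMO2, the bridging factor of the GATA1 and TAL1 complex, had 1044, 252 and 926 in NTC and no KO peak. All 3 were lower in KO by limma, with adjusted p of at most 5.3e-04, but LMO2 did not pass once the libraries were centred. The study reported that mRNA of GATA1, GFI1B, KLF1, LMO2 and ZFPM1 did not change significantly in WTAP or METTL3 knockout cells. A missing promoter peak here is thus no measure of expression.

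FOXO3, which drives late red cell genes, was the factor of this list marked in all 7 libraries. Its signal was 14771, 12701 and 21439 in NTC, 236 and 333 in METTL14-KO, and 660 and 342 in WTAP-KO. Every KO library was thus far below every NTC library, the KO mean being 2.41% of the NTC mean (log2 change -5.33 ± 0.35 SE, limma adjusted p = 3.5e-05). TAL1, the partner of LMO2, had NTC signals of 1358, 1029 and 1495 over one region and WTAP-KO signals of 249 and 45.5 over another, with no METTL14-KO peak, and its call as lower was lost with centred libraries (-0.93). NFE2, the p45 factor of globin genes, had a peak of 963 in NTC replicate 1 alone and was not tested.

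Heme is made in 8 steps from glycine, and the enzymes split among the outcomes. Of 9 genes, 7 were NTC-marked, of which 3 had no KO peak, 3 had one in some KO libraries and 1 in all 4. The 42.9% without a KO peak stood below the 71.9% background, at a median NTC signal of 6948. ALAD, the second enzyme, had NTC signals of 1739, 2410.0 and 2557, and FECH, which inserts the iron, had 9560.4, 7797 and 11310. Neither had a KO peak, and both were lower in KO (limma adjusted p = 5.2e-07 and 1.8e-07). PPOX had 14625, 9984 and 15114 in NTC, 892 and 130.2 in METTL14-KO, and 45.2 and 0 in WTAP-KO, so that no KO library came near NTC.

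UROS, the fourth enzyme, had 1067, 9554 and 7584 in NTC, 429 and 306 in METTL14-KO, and no WTAP-KO peak. At the region over its canonical start NTC replicate 1 had no listed peak, so the lowest NTC value came from neighbouring peaks (limma adjusted p = 0.0019), and the call was lost once the libraries were centred (-1.93). UROD, the fifth enzyme, had 404, 796 and 702 in NTC from a region downstream of its canonical start that held 3 annotated starts. METTL14-KO had 4096 and 2275 from a region that held 6 annotated starts and ended 23 bases before the canonical start. No NTC peak was listed over that region. WTAP-KO had no UROD peak. The call of UROD as lower in KO (log2 change -1.07 ± 0.33 SE, limma adjusted p = 0.026) therefore averaged a high and an unmarked group, and it was lost in 7 alternatives and turned in 2 more. CPOX had 21932 and 21778 in NTC replicates 1 and 2 but no peak in replicate 3, with 831 in METTL14-KO replicate 1 and 550 in WTAP-KO replicate 2, and did not pass (limma adjusted p = 0.25). ALAS2, the erythroid first enzyme, had no peak in any library.

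**Figure D3:**
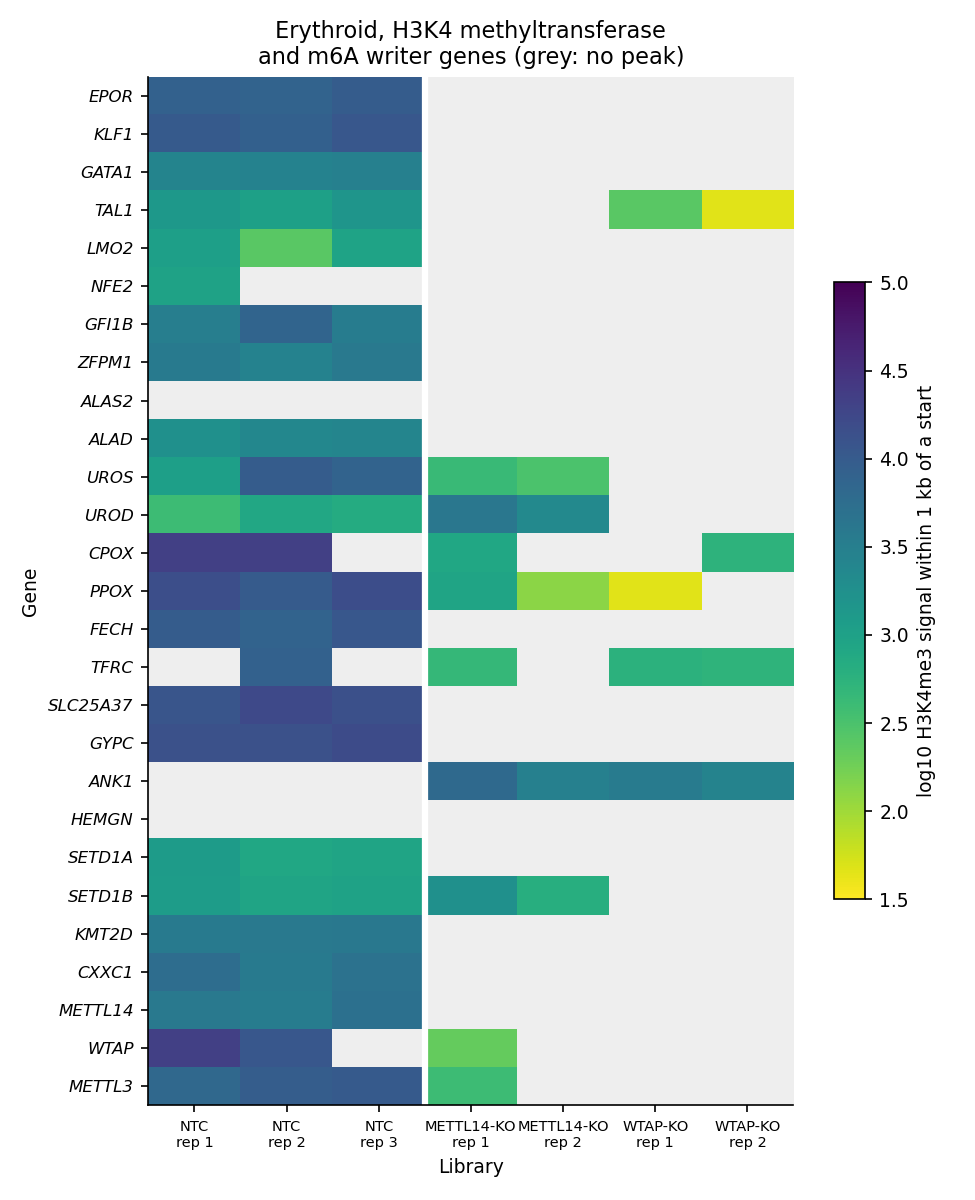
Rows are genes of red cell formation, H3K4 methylation and the m6A writer, columns the 7 libraries, and the colour gives log10 of the H3K4me3 signal within 1 kb of a start, with grey for no listed peak. Most rows are coloured in the 3 NTC columns and grey in the 4 KO columns, PPOX is coloured in all columns but one, and ANK1 is coloured in the KO columns only.

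Iron and heme transport and the red cell membrane gave small lists, whose shares were not tested against the background. Of 22 genes of iron and heme transport, 11 were NTC-marked and 10 of the 11 had no KO peak (90.9%, against 71.9%), at a median NTC signal of 7126. SLC25A37, the mitochondrial iron importer of erythroblasts, had 11980, 16798 and 14099 in NTC. ABCB10, its stabilising partner, had 13156, 14107 and 17972. Neither had a KO peak, and both were lower in KO by limma. TFRC, the transferrin receptor, was marked in NTC replicate 2 alone at 8116 and in 3 KO libraries at 466 to 563, and did not pass (limma adjusted p = 0.87). ACO1, the iron-responsive aconitase, had no NTC peak and a peak in each KO library at 4247 to 10054.

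Of 28 red cell membrane genes, 10 were NTC-marked and 9 of the 10 had no KO peak (90.0%, against 71.9%), at a median NTC signal of 5905. GYPC, the glycophorin that ties the membrane to its skeleton, had 13577, 13344 and 15663 in NTC and no KO peak (limma adjusted p = 9.9e-08). SLC2A1, the red cell glucose transporter, was the one marked in all 7 libraries, at 24589, 24285 and 29193 in NTC against 865, 243, 650.0 and 695 in KO. That is 2.36% of the NTC mean (limma adjusted p = 1.0e-04). ANK1, the ankyrin of the membrane skeleton, had no listed NTC peak and KO signals of 6298, 2972, 3465 and 2756. Its merged region was 1645 bp wide, and an NTC peak over 2000 bp would not be listed, so no direction is given. HEMGN, a nuclear protein of red cell precursors, had no listed peak in any library. The study, however, gave HEMGN as an example of H3K4me3 lost after knockout of the m6A writer. The empty entry therefore does not show that the HEMGN promoter was unmarked in NTC cells. Why the lists hold no HEMGN peak was not tested. The glycophorin, RH, alpha-globin and gamma-globin genes have near-identical copies, so reads can be split between them and their values are uncertain.

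Of 9 globin genes and the chaperone, HBE1, the embryonic beta-like globin, was the 1 NTC-marked gene, at 2872, 874 and 1778, and it had no KO peak. In erythropoietin signalling 11 of 18 genes were NTC-marked, and 7 of the 11 had no KO peak (63.6%, against 71.9%). The median NTC signal of the 11 was 11611, against 5947 for all NTC-marked genes. EPOR, the erythropoietin receptor, had 8281, 7713 and 9594 in NTC and no KO peak (limma adjusted p = 1.0e-07). STAT5A, which carries its signal to the nucleus, had 28693, 30551 and 16393 and no KO peak. GRB2, an adaptor of receptor signalling, was marked in all 7 libraries at 1766, 26131 and 27420 in NTC and 2836 to 9733 in KO. The groups overlapped, since NTC replicate 1 lay below every KO library, and the gene did not pass (limma adjusted p = 0.34). No single merged region at GRB2 held a peak of all 7 libraries. BCL2L1, the survival factor BCL-XL, had no NTC peak and KO signals of 19759, 13314, 3037 and 7952.

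The 6 lists of genes that rise or fall between stages of normal human erythropoiesis, from the supplement of the study, gave shares on both sides of the background. They were not drawn from these libraries. Of 126 genes that rise from CFU-E to proerythroblast, 122 matched an annotated gene, 69 were NTC-marked, and of the 69 no KO peak was found at 59 (85.5%) and none had one in all 4 KO libraries. Their median NTC signal was 3608, below the 5947 of all NTC-marked genes. The genes that fall at this step gave 81.3% without a KO peak and 6.25% in all 4, at a median NTC signal of 5012. The genes that rise from BFU-E to CFU-E gave 63.8% and 5.00%, at 7740. Those that fall gave 75.4% and 7.95%, at 5336. The genes that rise from CD34+ cells to BFU-E gave 69.0% and 12.3%, at 6264, and those that fall gave 72.8% and 10.98%, at 6758. Across the 6 lists the share without a KO peak was lowest where the NTC signal was highest. Among the tested genes 69 of 86 in the CFU-E to proerythroblast rise were lower in KO and 5 higher, and in the CD34+ to BFU-E rise 185 of 274 were lower and 42 higher, beside 75.0% and 9.60% of all genes tested.

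**Figure D4:**
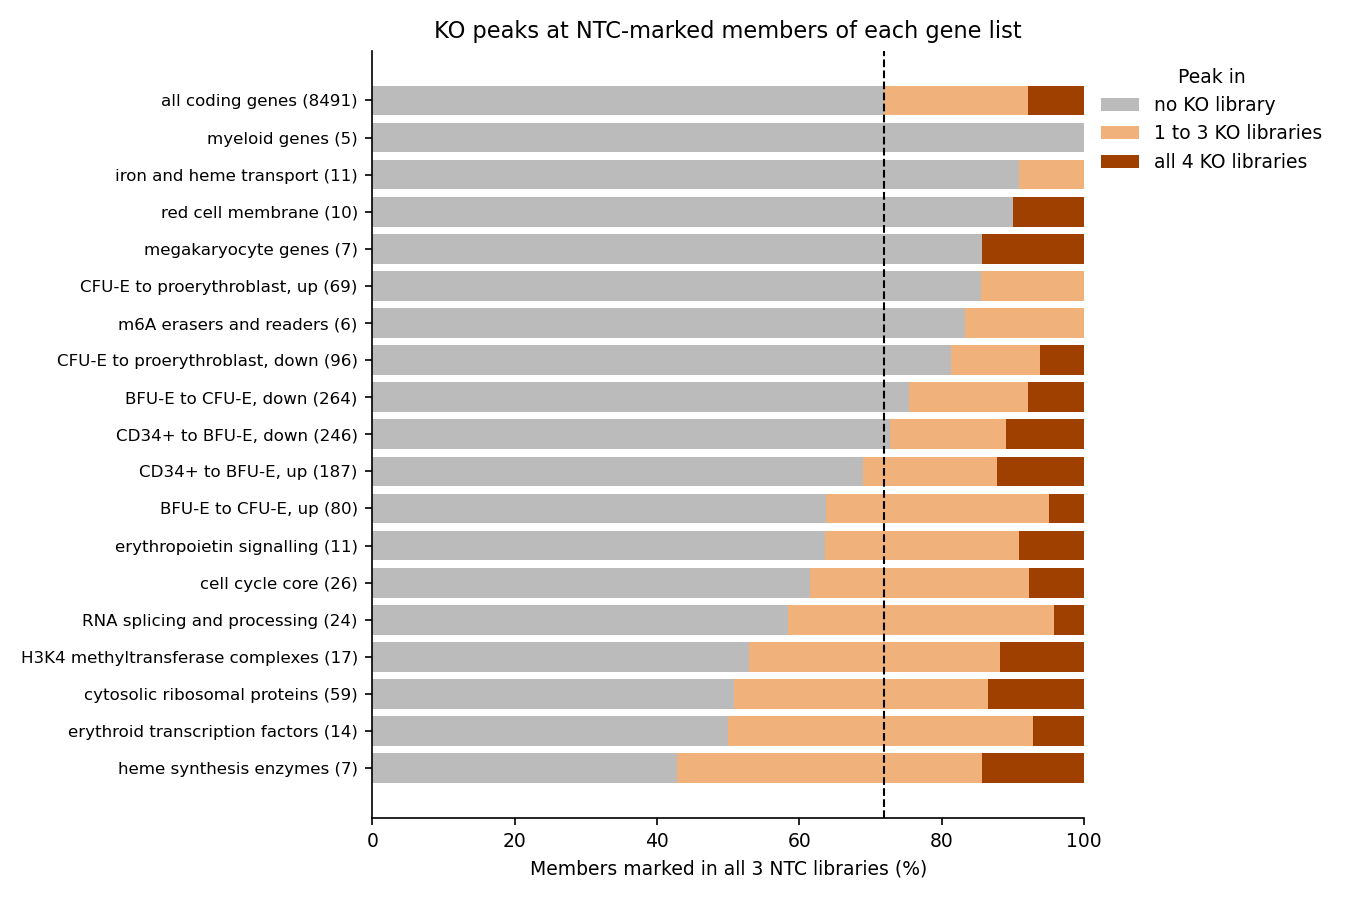
Each bar is a gene list with at least 5 NTC-marked members (number in brackets), split into the percentages of those members marked in no KO library (grey), in 1 to 3 (light orange) and in all 4 (brown), with all NTC-marked coding genes as the top bar and a dashed line at their 71.9%. Heme synthesis enzymes (42.9%) and erythroid transcription factors (7 of 14) lie left of the line, and iron and heme transport (90.9%) and red cell membrane genes (90.0%) lie right of it.

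The genes of the H3K4 methyltransferases and of other members of their complexes, which write the mark itself, were mostly marked in NTC. Of 19 genes, 17 were NTC-marked, of which 9 had no KO peak, 6 had one in some KO libraries and 2 in all 4. The 52.9% without a KO peak stood below the 71.9% background, and this difference was not tested. The median NTC signal of the 17 was 3853, also below the 5947 of all NTC-marked genes. SETD1A had 1192, 827 and 903 in NTC and no KO peak, and KMT2D had 3679.9, 3892 and 3987 and no KO peak. CXXC1, which targets the SETD1 complexes to CpG islands, had 5539.6, 3640.4 and 4844 and no KO peak. All 3 were lower in KO (limma adjusted p of at most 1.3e-06). SETD1B had 1165, 902 and 971 in NTC and 1753 and 645 in METTL14-KO, from different regions, and no WTAP-KO peak. KMT2A, the methyltransferase rearranged in leukemia as MLL, had no NTC peak and KO signals of 24669.6, 16386, 15290.2 and 23991. The merged region at its start was 1988 bp wide, close to the 2000 bp maximum of the lists.

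Of the 8 m6A writer genes, METTL14 had 3837, 3338 and 5174 in NTC and no KO peak in either knockout. METTL3 had 6578, 9224 and 10067 in NTC and 400 in METTL14-KO replicate 1 alone. WTAP had 21869 and 11067 in NTC replicates 1 and 2, no peak in replicate 3, and 213 in METTL14-KO replicate 1 alone, and it did not pass (limma adjusted p = 0.11). A promoter mark does not measure the edited protein, so these values do not check the knockouts. VIRMA, the writer scaffold, and ZC3H13, its nuclear anchor, had no NTC peak and a peak in all 4 KO libraries, at 1138 to 3779 and at 766 to 1917.

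The lists of ribosomal protein, cell cycle and splicing genes are given for comparison, and their shares were not tested against the 71.9% background. Of 78 cytosolic ribosomal protein genes, 59 were NTC-marked, of which 30 (50.8%) had no KO peak and 8 (13.6%) had one in all 4 KO libraries. The median NTC signal of the 59 was 5841, close to the 5947 of all NTC-marked genes. RPL30 was marked in all 7, with means of 15042 in NTC and 3098 in KO. RPS18 differed from the other 7 such genes in that its groups overlapped. No single merged region at RPS18 held a peak of all 7 libraries, so its NTC and KO sums come in part from different regions. Its NTC signals were 8013, 5136 and 10008 and its KO signals 7705, 5987, 4801 and 5479, and it did not pass (log2 change -0.33 ± 0.29 SE, limma adjusted p = 0.32). No KO peak was found at 61.5% of 26 NTC-marked cell cycle genes and at 58.3% of 24 NTC-marked splicing and RNA processing genes. All 5 NTC-marked myeloid genes, among them CEBPA and LYZ, and 6 of 7 NTC-marked megakaryocyte genes, among them GP9, had no KO peak.

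The 671 genes marked in all 7 libraries were still weaker in KO. Their median signal was 15257, 14629 and 17463 in NTC, 2535 and 1375 in METTL14-KO, and 975 and 1419 in WTAP-KO. The KO mean of 1576 ± 670 (SD, n = 4) was 9.99% of the NTC mean of 15783 ± 1488 (SD, n = 3), with p = 0.0571 in the two-sided exact permutation test, again the smallest possible. When each library was divided by its step, which undoes the scale of that library, the KO mean was 31.3% of NTC, and this setting was chosen after seeing the data. Gene by gene, every KO library lay below every NTC library at 599 genes, above at 16, and overlapped at 56. Such separation was not particular to this class, since 6102 of the 8491 NTC-marked genes had no KO peak and so separated too. Of the 671, limma called 603 lower and 17 higher, beside 75.0% and 9.60% over all genes tested. These counts depended on the scale, with 498 lower and 37 higher after division by the step, and 120 lower and 177 higher when the libraries were centred on these same genes, which sets their typical change near 0.

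A mark in all 7 libraries did not always mean the same stretch of chromatin. In 494 of the 671 genes 1 merged region held a peak of all 7 libraries, and in 89 no NTC peak shared a region with any KO peak. Among the 494, the median gene kept 8.996% of its NTC signal, 492 were called lower and none higher. Among the other 177, where NTC and KO sums come in part or wholly from different regions, 111 were called lower and all 17 higher calls fell here. The 5 genes with the highest KO signal relative to NTC were of this kind. MEIS2, a homeobox factor, had 345 to 806 in NTC and 1721 to 8591 in KO. RUNX1, which governs blood stem cells and megakaryocytes, had 966, 622 and 732 in NTC from one region and 6685, 1495, 7056 and 7726 in KO from 3 others. FKBP5, a glucocorticoid-induced chaperone, had 1389, 1078 and 1132 in NTC at chr6:35656777-35657118 and 12411, 9280, 5522 and 6636 in KO at chr6:35654898-35655874. ZNF638 and TMEM123 were the other two. The KO values of all 5 genes came from regions with no listed NTC peak, and the part that the width maximum played was not tested.

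**Figure D5:**
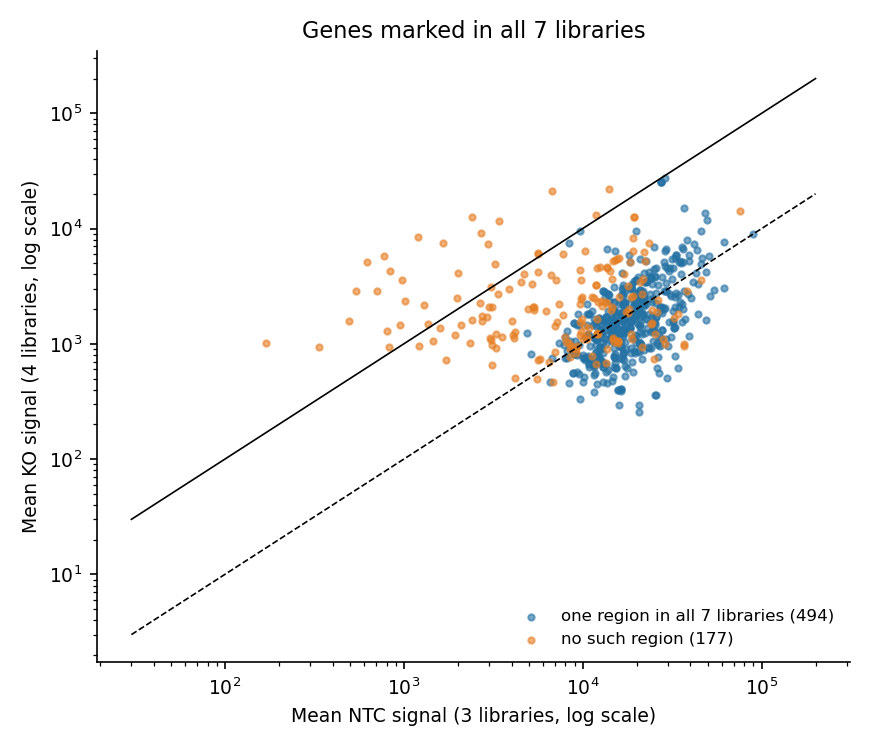
Each point is 1 of the 671 genes marked in all 7 libraries, with mean NTC signal on the x axis and mean KO signal on the y axis, both on log scales in deposited units. Lines mark equal signal (solid) and 10% of NTC (dashed). Blue genes, with 1 region in all 7 libraries, gather near the dashed line, and the genes near or above the solid line are mostly orange, without such a region.

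Strong NTC promoters were among those without any KO peak. Among the 5 of highest NTC signal in that class were RERE, a transcriptional corepressor, RPN1, a subunit of the oligosaccharyltransferase, SPTLC2, of sphingolipid synthesis, and LIG3, a DNA ligase. RERE had 49867, 45709 and 59393 in NTC, summed over 7 regions, and RPN1 had 35804, 40545 and 44718, summed over 3. The mean of SPTLC2, over 4 regions, was 37928 ± 4310 (SD, n = 3), and that of LIG3, over 5, was 35361 ± 2973. The choice of these genes fixed their KO values at 0, so no test is given. Both METTL3-KO libraries marked all 4. More widely, both METTL3-KO libraries marked 19.2% of the NTC-marked genes without a METTL14-KO or WTAP-KO peak. They marked 99.1% of those marked in all 7 libraries and 39.8% of all NTC-marked genes. These shares rest on the same NTC libraries as the classes and are given as a description.

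In the other direction, 729 genes had a peak in the 4 KO lists and in none of the NTC lists, which is 43.9% of the 1661 genes marked in all 4. Their median KO signal was 2342, above the 1565 at the 671 genes marked in all 7. Their widest KO peak had a median width of 591 bp, against 461 bp at those 671. Where 1 or 2 NTC libraries also marked a gene that all 4 KO libraries marked (261 genes), the median width of the widest NTC peak was 1754 bp, against 1509 bp at the 671. Within 3 kb of a start, 18.4% of the 729 had a peak in some NTC library. Both METTL3-KO libraries marked 80.7% of them.

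The 5 genes of highest KO signal among the 729 were HAUS6, RLN2, KMT2A, RIGI and FOCAD. HAUS6 had KO signals of 29465, 24786, 21251 and 25403, and RLN2, a relaxin hormone gene, 26721, 22639, 18875 and 22285. RIGI, a sensor of viral RNA, had 14833 to 18963, and FOCAD, of focal adhesions, 13369 to 19458. All NTC libraries were listed at 0 for each of them, as the choice of these genes required, so no test is given. Of these 5, all but KMT2A lie on the short arm of chromosome 9, which holds 2.06% of the 729 genes, 1.14% of all coding genes and 0.836% of NTC-marked genes. RPS25, with 6658 to 10110 in KO and no METTL3-KO peak, was the strongest ribosomal protein gene of this kind, and MCM3, CDKN2C and SRSF3 were among the cell cycle and splicing genes.

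METTL14-KO and WTAP-KO differed from each other at few genes by the same test. Of 11191 genes 343 (3.06%) differed, 306 of them higher in METTL14-KO and 37 higher in WTAP-KO. With the replicate number added to the model as a block, 3 genes differed, so these calls depended on the model. At 247 of the 343 both METTL14-KO libraries and neither WTAP-KO library had a peak. UROD was one (limma adjusted p = 0.0031) and SETD1B another (limma adjusted p = 0.0071). GAB1, an adaptor of growth factor receptors, was higher in WTAP-KO, at 1469 and 1298 against 462 and 440 (limma adjusted p = 0.0034), with no NTC peak. At UROD, SETD1B and GAB1 a group listed at 0 added no spread to the fit, which makes their p-values smaller. The count rested on METTL14-KO replicate 2, since 1419 genes were called without it, when the lone METTL14-KO library was assumed to vary like the other groups. Over all settings tried the count ran from 3 to 1419 genes. With 2 libraries a group, genes that did not pass are not shown to be alike.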

How the data were processed

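H3K4me3 CUT&RUN was performed in HEL cells with a yeast spike-in. Per the submitters' processing notes and the methods, reads were aligned with Bowtie to hg19 and sacCer3, calibrated to the spike-in, and duplicates were removed with Picard; versions are not given in the sources used here. The authors deposited one peak list per library with a position and a signal in calibrated coverage units, called separately for every library. The files do not say whether positions count from 0 or 1; starts were taken to count from 0 and 1 was added before printing.

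Groups and replicate numbers came from the labels. Genes were the 20136 protein-coding symbols of GENCODE on hg19, with every annotated start, and overlapping peaks of the 7 libraries (1 bp or more) were joined into 29033 regions. Old symbols of the stage lists were matched through RefSeq synonyms. Signal was tested on log2(signal + 30.1), the pseudocount being the lowest listed value, with limma 3.58.1 (R 4.3.3; trend, Benjamini-Hochberg adjustment, 0.05) over genes or regions marked in at least 2 libraries, as the average of both KO groups minus NTC. The fit was also run on simulated normal values with the same spread in every group. These do not copy a group listed at 0, so that case was not checked. On this scale changes at weak genes come out too small. Library values were compared by exact permutation tests. Members and lists were chosen with earlier results of these data known, so no p is adjusted over a list alone. Named genes were a list of 30, the 5 strongest NTC-marked genes without a KO peak, the 5 with the smallest loss among those marked in all 7 libraries, the 5 strongest marked in KO alone, and up to 4 members of each list marked in all 4 KO libraries; other names were chosen after their values were seen, and some genes of these sets are not reported here. Promoter letters were read from the GRCh37 genome. Python 3.11.15, pandas 2.3.3, numpy 2.4.6, scipy 1.17.1 and matplotlib 3.10.9 were used.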

Additional observations from a re-analysis of the deposited data

Results flagged for a closer look

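METTL14-KO and WTAP-KO, compared with each other within the same model, differed at 343 genes, 306 of which were higher in METTL14-KO. This is listed because the 2 KO groups were pooled in the comparison with NTC. With the replicate block 3 genes differed, 2 of them higher in METTL14-KO. Over the settings tried the count ran from 3 to 1419 genes.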

How the results depend on the processing

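Of 158 recomputed values of the 10 main counts and library ratios, 146 stayed within 1.5 times (counts) or kept their direction (ratios), and of 600 recomputed log2 changes at 40 named genes 573 kept direction and call, 19 changed the call and 8 turned. The number of marked genes in KO was 9.91% to 33.2% of NTC, the lowest without peaks weaker than the median NTC peak, against 30.9%. The median signal at genes marked in all 7 libraries was 7.92% to 31.3% of NTC, the highest after division by the step, against 9.99%. Genes marked in all 7 libraries numbered 320 with a peak over the start itself, 435 with the outermost start only and 93 when peaks weaker than the median NTC peak were left out, against 671. Genes marked in KO alone numbered 407 with a peak over the start itself and 167 without the weaker peaks, against 729. Genes higher in KO numbered 715 and 381 in these same settings, and 45 when an NTC peak was required (chosen after seeing the data), against 1074. Genes differing between METTL14-KO and WTAP-KO numbered 97 without the weaker peaks, 128 with 10 times the pseudocount, and 234 to 1419 when 1 library was left out, against 343. Centring the libraries on the genes marked in all 7 moved the calls to 7105 lower and 1470.0 higher and turned UROD to 2.31 and SETD1B to 0.87 on the log2 scale. With 10 times the pseudocount UROD was 0.13 and TFRC -0.52. TFRC, which did not pass in any setting, ran from -0.90 to 3.14 when 1 library was left out. Same-numbered libraries did not deviate together (correlations of -0.07 to 0.03), so the numbers give no pairing. With the replicate block, 8491 genes were lower and 894 higher, 3 differed between METTL14-KO and WTAP-KO, and TFRC was at -0.90. ZNF638 passed in neither the block nor 3 of the settings without 1 library, and TMEM123 not with the block. For each of these values the cause was not tested. The number of libraries and the unknown depth limit what could be detected.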
